A study of Homo sapiens with 12 samples.

Results

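The major heterogeneous nuclear ribonucleoprotein (hnRNP) genes are described here in HCT116 cells, an established human colon carcinoma line. The 10 genes, HNRNPA1, HNRNPA2B1, HNRNPA3, HNRNPC, HNRNPD, HNRNPDL, HNRNPH1, HNRNPK, HNRNPM and HNRNPU, were chosen by name as the large, abundant members of the family and found by Ensembl identifier among the 58051 genes of the count tables. All 10 passed the filter on low counts. The cells received siRNA against PFDN2 (siPFDN2), against PFDN5 (siPFDN5) or a control siRNA (siControl) 24 h before 48 h without serum. Both targets are subunits of prefoldin, a co-chaperone that hands unfolded actin and tubulin to the chaperonin TRiC. Total RNA was depleted of 18S ribosomal RNA and sequenced either at the end of starvation (before serum) or 90 min after serum was added (after serum). This gave 6 groups, each an siRNA at 1 time, with 2 libraries each, 12 in all. The labels do not say that replicates came from separate cultures, so p-values measure the spread between these libraries only, which may be technical. Only 1 siRNA sequence was used for each target.

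hnRNP proteins coat nascent transcripts of RNA polymerase II and take part in splicing, 3′ end formation, export, stability and translation of mRNA. HNRNPA1, HNRNPA2B1 and HNRNPA3 are related proteins with paired RNA recognition motifs and a glycine-rich tail. HNRNPC binds uridine tracts as a tetramer with a single RNA recognition motif per chain. HNRNPD, also named AUF1, and its relative HNRNPDL bind AU-rich elements. HNRNPH1 binds runs of guanines through quasi-RNA recognition motifs, HNRNPK binds cytosine-rich RNA through KH domains, HNRNPM binds GU-rich RNA, and HNRNPU, also named SAF-A, binds both RNA and scaffold-attached DNA. Many genes of the family control their own mRNA by splicing it into forms that keep an intron or are degraded by nonsense-mediated decay, which removes mRNAs with an early stop codon.

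The libraries held between 46158398 and 114454288 exon counts, of which the 10 genes together took between 0.277% and 0.350%. The siPFDN2 library of replicate 2 before serum stood apart from the rest. Its deviations from the mean of all libraries rose with the GC content of the gene (Spearman's rho = 0.841 across 11152 genes, which are not independent replicates), where the other 11 libraries ranged from -0.529 to 0.0463. The SD, over 11197 genes, of the log2 difference between the 2 libraries of its group was 0.716, against 0.106 to 0.183 in the other groups. Calls on exon counts are therefore given with and without that library. PFDN2 stood at 6.52 and 6.66 exon CPM (counts scaled to a common library size) in the siPFDN2 libraries before serum against 11.1 and 11.1 in siControl, and at 7.96 and 9.42 against 20.3 and 17 after serum. Its log2 change was -0.75 ± 0.16 (SE) before and -1.10 ± 0.16 after serum, with adjusted p of 0.359 and 0.906 (edgeR quasi-likelihood test, Benjamini-Hochberg adjustment over all genes), and 0.0381 and 0.000328 without the library that stood apart. Before serum PFDN5 measured 52.2 and 55.5 CPM in siPFDN5 against 94.1 and 84.3 in siControl, a log2 change of -0.73 ± 0.13 (adjusted p = 0.179, and 2.17e-05 without that library, edgeR). In the libraries labelled siPFDN5 after serum it stood at 78.0 and 79.6 CPM against 87.3 and 90.1, a log2 change of -0.17 ± 0.13 (adjusted p = 0.506, and 0.110 without that library, edgeR), so those libraries are named by their label throughout. The epithelial markers EPCAM, CDH1, KRT8, KRT18 and KRT19 were present at 75.7 to 1375 CPM in all 12 libraries. Of the markers of other cells, PTPRC, PECAM1, ALB and GFAP were at or below 0.426 CPM, and COL1A1 was at 4.70 to 19.4 CPM.

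In the GENCODE 29 annotation (GRCh38), HNRNPA1 spans chr12:54280193-54287088, HNRNPA3 spans chr2:177212563-177223958 and HNRNPM spans chr19:8444767-8489114, all on the plus strand. On the minus strand, HNRNPA2B1 spans chr7:26173057-26201529, HNRNPC spans chr14:21209136-21269494, HNRNPH1 spans chr5:179614178-179634784, HNRNPK spans chr9:83968083-83980616 and HNRNPU spans chr1:244840638-244864560. HNRNPD at chr4:82352498-82374503 and HNRNPDL at chr4:82422564-82430408 are neighbours on the same strand of chromosome 4. Alternative splicing adds or removes coding segments in several of these genes, and the segments are shown because the estimates below divide each gene's mRNA by them. Each is a run of whole codons that some protein-coding transcripts carry and others with the same neighbouring sequence lack, at a mean inclusion of 5% to 95%. They were cut from the GENCODE 29 transcripts (GRCh38), 5′ to 3′. Capitals mark the segment, and the lower-case letters are the 9 bases on either side in the spliced mRNA.

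HNRNPA2B1, 36 bases, chr7:26197831-26197866, minus strand: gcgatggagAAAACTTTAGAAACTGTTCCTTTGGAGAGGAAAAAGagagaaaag
HNRNPC, 39 bases, chr14:21230958-21230996, minus strand: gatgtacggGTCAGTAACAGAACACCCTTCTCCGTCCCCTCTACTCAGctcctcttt
HNRNPD, 57 bases, chr4:82371528-82371584, minus strand: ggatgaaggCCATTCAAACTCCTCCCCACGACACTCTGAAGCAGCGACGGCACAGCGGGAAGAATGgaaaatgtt
HNRNPD, 147 bases, chr4:82356537-82356683, minus strand: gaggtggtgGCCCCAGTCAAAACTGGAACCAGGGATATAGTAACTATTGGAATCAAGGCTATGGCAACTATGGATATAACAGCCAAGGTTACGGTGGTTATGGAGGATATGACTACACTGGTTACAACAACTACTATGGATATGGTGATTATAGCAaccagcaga
HNRNPK, 72 bases, chr9:83973902-83973973, minus strand: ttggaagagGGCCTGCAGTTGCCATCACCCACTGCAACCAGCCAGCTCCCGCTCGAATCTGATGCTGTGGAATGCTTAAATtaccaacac

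All of these segments lie in coding exons. The HNRNPA2B1 segment near the start codon separates form B1, which carries it, from form A2, which does not. The HNRNPC segment separates form C2 from the shorter C1, and the pair of HNRNPD segments gives the isoforms of AUF1. In HNRNPM, segments of 117 and 45 bases were found by the same rule and are described below without their sequence.

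Scaled to RPKM, that is CPM per kilobase of annotated exon, HNRNPK had the highest level of the 10, 105 ± 10.3 (mean ± SD over 12 libraries). HNRNPC followed at 80.0 ± 12.9, and HNRNPK exceeded it in 12 of 12 libraries. HNRNPA2B1 at 49.1 ± 7.50 and HNRNPA1 at 47.5 ± 9.48 could not be ordered, since HNRNPA2B1 was the higher in only 5 of 12 libraries. HNRNPU at 33.9 ± 3.89, HNRNPDL at 33.0 ± 6.36 and HNRNPH1 at 32.1 ± 3.28 overlapped in the same way, each above the next in 7 of 12 libraries. HNRNPA3 at 25.4 ± 2.23 and HNRNPM at 25.2 ± 6.86 also overlapped, and HNRNPD was lowest at 15.6 ± 2.23, below HNRNPM in all 12 libraries. Exon lengths here are the union of all annotated exons, so a gene with long exons seldom used has a lower RPKM. Exon counts also leave out multimapping reads, and HNRNPA1 has 74 annotated pseudogenes. In transcript estimates HNRNPA1 stood above HNRNPK in siControl after serum replicate 1, at 56568 against 39937. It stood below HNRNPK in siControl before serum replicate 1, at 36779 against 45873. Their annotated exon lengths are close, 5093 and 5114 bases, so the place of HNRNPA1 in this order is uncertain. The siPFDN2 library of replicate 2 before serum was the lowest of the 12 for HNRNPK, HNRNPC, HNRNPDL and HNRNPH1 and the highest for HNRNPA2B1, HNRNPM and HNRNPD.

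**Figure D1:**
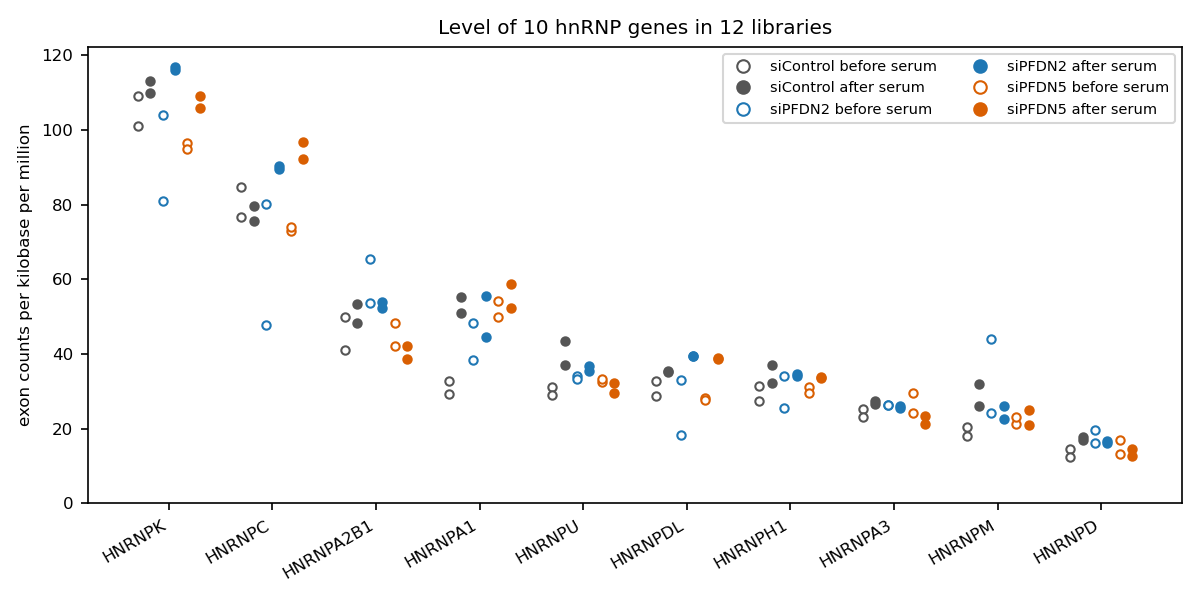
Level of each of the 10 hnRNP genes (x axis, in falling order of the mean) as exon RPKM (y axis), 1 point per library, coloured by siRNA, open before and filled after serum. HNRNPK has the highest mean and HNRNPC the next, and the open siPFDN2 point far from its partner in HNRNPC, HNRNPDL and HNRNPM is replicate 2.

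HNRNPA1 is a shuttling repressor of splice sites and the only member whose exon counts changed in any of the 9 comparisons with all libraries. The starved siControl libraries held 166 and 148 CPM of it and the serum-treated ones 282 and 260 CPM. It rose with serum in siControl by 0.78 ± 0.16 (log2, SE), with an adjusted p of 0.0357 (edgeR). Of the 24889 genes tested, 2.13% were called in that comparison, 431 higher and 98 lower, against 1 of the 10 members. Without the siPFDN2 library that stood apart, the change was 0.78 ± 0.10 with an adjusted p of 3.87e-05, and 12% of 26131 genes and 3 of the 10 members were called. The adjusted p ran from 3.87e-05 to 0.377 over 23 alternative settings, of which 12 kept it below 0.05, and the change itself from 0.70 to 0.86. The call was lost without any 1 of the siControl or siPFDN5 libraries or replicate 1 of siPFDN2 after serum, at adjusted p from 0.0596 to 0.377.

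In the other groups HNRNPA1 lay above the starved siControl libraries. Before serum the values were 246 and 195 CPM in siPFDN2 and 275 and 255 CPM in siPFDN5. After serum the values were 226 and 283 CPM in siPFDN2 and 266 and 299 CPM under the label siPFDN5. Both starved siControl libraries were thus the lowest of the 12, and the other groups spanned 195 to 299 CPM. Before serum the log2 change against siControl was 0.75 ± 0.16 for siPFDN5 (adjusted p = 0.291, edgeR) and 0.49 ± 0.16 for siPFDN2 (adjusted p = 0.359), and 0 of 24889 genes (0%) were called in either comparison, though 2265 and 3451 genes had an unadjusted p under 0.05, among them 1 and 4 members. DESeq2 called 1 member, HNRNPA1, in the siPFDN5 comparison and 0 in the siPFDN2 comparison. Without the library that stood apart, HNRNPA1 was called in both, at 0.75 ± 0.10 for siPFDN5 (adjusted p = 0.000382, with 10.8% of genes called) and 0.64 ± 0.12 for siPFDN2 (adjusted p = 0.0252, with 0.402% called). The second of these compares a lone siPFDN2 library, assumed to vary like the other groups. These comparisons share the starved siControl libraries with the serum comparison in siControl.

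With serum, HNRNPA1 changed by 0.21 ± 0.16 in siPFDN2 and by 0.09 ± 0.16 in the siPFDN5 libraries, and the groups overlapped in both. Without the library that stood apart these changes were 0.05 ± 0.12 and 0.10 ± 0.10. The test of the difference from the serum response in siControl gave -0.57 ± 0.23 for siPFDN2 (adjusted p = 0.532) and -0.69 ± 0.23 for siPFDN5 (adjusted p = 0.278, edgeR), with 0% of genes called in either and 1784 and 3231 genes at an unadjusted p under 0.05, 2 and 3 of them members. DESeq2 called 0 members in both. Without the library that stood apart, the siPFDN5 difference was -0.68 ± 0.14 with an adjusted p of 0.00549, and the siPFDN2 difference -0.73 ± 0.16 with an adjusted p of 0.887. HNRNPA1 has 74 annotated pseudogenes, which held between 15.6% and 25.1% of the exon counts of the gene and its pseudogenes together. Multimapping reads were not counted, so reads that match more than 1 of these copies are missing from its exon counts. Transcript estimates in siControl before serum replicate 1 gave 36779 for HNRNPA1 against 12558 exon counts, and 45873 against 42153 for HNRNPK. The level of HNRNPA1 is thus uncertain by more than that share, and the cause of the gap was not tested.

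**Figure D2:**
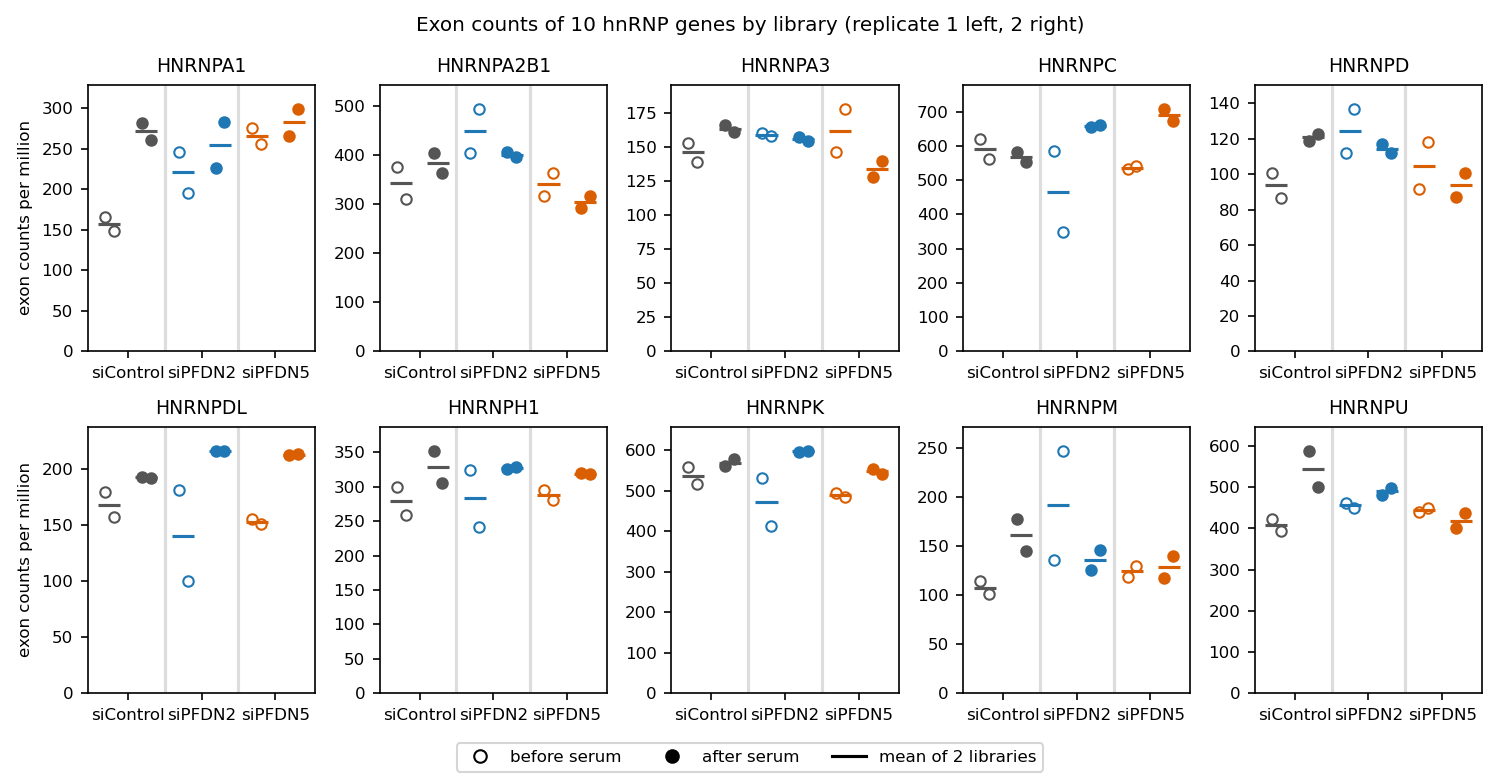
Exon CPM (y axis) of each hnRNP gene by siRNA, open before and filled after serum, with replicate 1 on the left and the line at the mean of 2 libraries. In the HNRNPA1 panel the open siControl points at 166 and 148 are the lowest of the 12.

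HNRNPM and HNRNPU had the next largest log2 changes with serum in siControl. HNRNPM, a regulator of alternative splicing, went from 114 and 101 CPM to 178 and 145 CPM. Its change of 0.59 ± 0.24 had an adjusted p of 0.412 with all libraries and 0.00400 (0.58 ± 0.11) without the siPFDN2 library that stood apart (edgeR). HNRNPU went from 422 and 393 CPM to 588 and 500 CPM. Its change of 0.42 ± 0.13 had an adjusted p of 0.171, and 0.00199 (0.41 ± 0.08) without that library. Neither gene's libraries overlapped between the 2 times. The same held for HNRNPA1, HNRNPA3, HNRNPD, HNRNPDL, HNRNPH1 and HNRNPK, the last at a change of only 0.08 (adjusted p = 0.968, edgeR). Lack of overlap thus does not set HNRNPM and HNRNPU apart, and its share over all genes was not counted. HNRNPD, which went from 101 and 86.6 CPM to 119 and 123 CPM, missed the threshold either way, at adjusted p of 0.494 and 0.0558. Across the 11 libraries without the one that stood apart, HNRNPM and HNRNPU had the most similar log2 CPM of any pair of members (Pearson r = 0.916, a description over libraries of 6 groups).

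In siPFDN5 the serum comparison called members other than HNRNPA1 when the library that stood apart was left out. With all 12 libraries 0 of 10 members and 4.22% of genes were called, and 0 members had an unadjusted p under 0.05 (edgeR; DESeq2 also called 0). Without the siPFDN2 library that stood apart, 3 of 10 members and 32.8% of genes were called. HNRNPC went from 532 and 540 CPM to 708 and 673 CPM, and rose by 0.37 ± 0.08 (adjusted p = 0.000845, edgeR). HNRNPDL went from 155 and 151 CPM to 212 and 213 CPM, and rose by 0.48 ± 0.08 (adjusted p = 8.48e-05). HNRNPA3 went from 146 and 178 CPM to 128 and 140 CPM, and fell by 0.27 on the log2 scale (adjusted p = 0.0257). With all libraries their changes were 0.37 ± 0.20, 0.47 ± 0.22 and -0.27 ± 0.14, with adjusted p from 0.232 to 0.307. The share of members called is close to that of all genes.

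**Figure D3:**
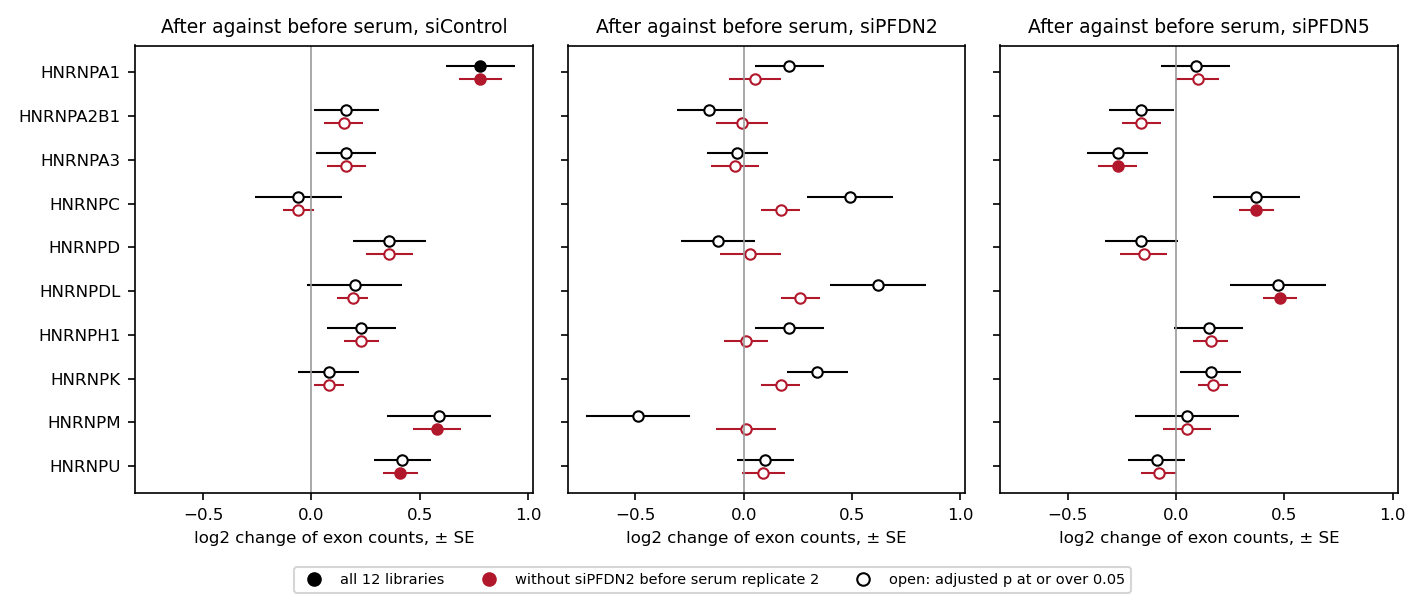
Log2 change of exon counts after against before serum (x axis, ± SE) of each hnRNP gene under the 3 siRNAs, with all 12 libraries (black) and without the siPFDN2 library of replicate 2 before serum (red), filled where the adjusted p is below 0.05. HNRNPA1 in siControl is the only filled black point, and the siPFDN2 values of HNRNPM, HNRNPC and HNRNPDL move towards 0 without that library.

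In siPFDN2 the serum comparison includes the library that stands apart. With it, 0 of 10 members and 2.53% of genes were called, and 3 members had an unadjusted p under 0.05 (edgeR; DESeq2 called 0 members). Without it, 0 of 10 members and 5.46% of genes were called. From before to after serum, HNRNPDL went from 181 and 100 CPM to 216 and 216 CPM, HNRNPC from 585 and 348 to 654 and 660, and HNRNPM from 136 and 247 to 126 and 146. In each case the second value before serum is the library that stands apart. Its removal took the change of HNRNPM from -0.49 to 0.01, that of HNRNPC from 0.49 to 0.17 and that of HNRNPDL from 0.62 to 0.26. When the other siPFDN2 library before serum was left out in its place, so that the library that stood apart was alone in its group, 7 members and 54.7% of genes were called.

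After serum, no member passed the test between siPFDN2 and siControl: 0 of 10 members and 0% of genes were called, and 0 members had an unadjusted p under 0.05 against 1205 genes (edgeR; DESeq2 called 0 members). Without the library that stood apart 0 of 10 members and 6.09% of genes were called. The libraries labelled siPFDN5 gave 0 of 10 members and 0.00402% of genes called with all libraries, 1 member having an unadjusted p under 0.05 and DESeq2 calling 0. Without the library that stood apart, which is in neither group, 5 of 10 members and 26.5% of genes were called. HNRNPU stood at 400 and 436 CPM against 588 and 500 in siControl (-0.37 ± 0.08, adjusted p = 0.00285, edgeR). HNRNPA2B1 stood at 291 and 316 CPM against 403 and 364 (-0.33 ± 0.09, adjusted p = 0.0159). HNRNPD stood at 87.1 and 101 CPM against 119 and 123 (-0.36 ± 0.11, adjusted p = 0.0325), and HNRNPA3 at 128 and 140 against 166 and 161 (-0.28 ± 0.09, adjusted p = 0.0256). HNRNPC was the exception in direction, at 708 and 673 CPM against 583 and 553 (0.29 ± 0.07, adjusted p = 0.00754). With all libraries the changes of HNRNPU, HNRNPA2B1, HNRNPD, HNRNPA3 and HNRNPC were -0.38 ± 0.13, -0.34 ± 0.15, -0.36 ± 0.17, -0.29 ± 0.14 and 0.28 ± 0.20, with adjusted p from 0.177 to 0.494. Over the 10 members the median log2 change was -0.16, against -0.03 over all genes.

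The serum responses themselves differed between siPFDN5 and siControl for 6 of 10 members without that library, where 18.7% of genes were called. Beside HNRNPA1, the difference was -0.49 ± 0.12 for HNRNPU, -0.52 ± 0.16 for HNRNPM, -0.51 ± 0.16 for HNRNPD and -0.42 ± 0.12 for HNRNPA3, and 0.44 ± 0.11 for HNRNPC, with adjusted p from 0.00866 to 0.0416 (edgeR). PFDN5 itself rose with serum in siPFDN5, and PFDN2 rose with serum in siControl. Serum and the levels of PFDN5 and PFDN2 thus cannot be told apart in these differences. With all libraries these differences were -0.51 ± 0.18, -0.54 ± 0.34, -0.52 ± 0.24, -0.44 ± 0.19 and 0.42 ± 0.28, with adjusted p from 0.291 to 0.573. In siPFDN2 against siControl, 0 members and 0% of genes were called without it. HNRNPK and HNRNPH1 were called in none of the 9 comparisons with or without that library. HNRNPK ranged from 486 to 599 CPM and HNRNPH1 from 259 to 352 CPM over the other 11 libraries.

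Splicing of the coding segments shown above was estimated from the transcript counts, as the share that carries the segment. The share is taken only among protein-coding transcripts that either carry the segment or splice it out, not over the whole gene. For the 57-base and 147-base segments of HNRNPD these transcripts held 76.0% and 75.9% of the coding estimates. For HNRNPC the 39-base segment was carried by 45.0% to 52.7% of the estimates over all 12 libraries. The HNRNPA2B1 segment was carried by 4.39% to 11.7%. No test of single segments was made.

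The siPFDN2 library of replicate 2 before serum was the extreme of the 12 for each segment described here. It carried the HNRNPD 57-base segment in 67.0% of estimates, against 45.2% to 55.1% in the other 11 libraries, and the 147-base segment in 45.4% against 68.3% to 80.9%. It carried the 72-base HNRNPK segment in 77.4% against 94.4% to 95.8%, and the 66-base extension of the first exon of HNRNPA3 in 66.4% against 31.6% to 40.7%. In HNRNPM the 117-base segment was at 79.9% against 86.0% to 90.4%, and the 45-base segment at 99.4% against 91.5% to 95%.

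The main transcript of HNRNPDL held a larger share after serum under each siRNA. HNRNPDL-206, which is protein-coding, held 53.0% and 52.6% of the gene's estimated counts in siControl before serum and 64.1% and 60.6% after. In siPFDN2 it held 53.5% and 54.1% before and 59.1% and 61.7% after, and in the siPFDN5 libraries 51.1% and 52.2% before and 61.9% and 63.5% after. All 6 libraries after serum lay above all 6 before serum. HNRNPDL-204, another protein-coding transcript, held 16.0% and 12.1% before and 7.81% and 8.71% after serum in siControl, and 12.2% and 11.3% before and 5.32% and 4.35% after in the siPFDN5 libraries. In siPFDN2 its shares overlapped, at 12.1% and 9.0% before and 9.73% and 6.64% after. HNRNPDL-202, annotated as a target of nonsense-mediated decay, held 5.44% to 12.3%. These are shares of model-based estimates, described without a test.

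The forms of HNRNPH1 that retain an intron were lowest in the libraries labelled siPFDN5 after serum. Summed over 16 such transcripts, they held 11.5% and 12.1% of the estimates there, against 22.6% and 18.4% in siPFDN5 before serum and 29.8% and 22.4% in siControl after serum. The remaining siControl libraries, before serum, stood at 33.8% and 23.4%, and siPFDN2 at 23.5% and 24.7% before and 25.2% and 16.2% after. The protein-coding transcript HNRNPH1-203 was highest in the same libraries, at 26.6% and 30.9%, with 9.36% to 26.2% in the other 10. In the test of noncoding against coding transcripts of a gene, HNRNPH1 changed by -1.33 ± 0.36 against siControl after serum (unadjusted p = 0.00474, adjusted p = 0.206, edgeR). The median over all genes in that comparison was -0.34, and 1506 of 10150 genes had an unadjusted p under 0.05.

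No member passed that test in any of 7 comparisons. The share of 10150 genes called was 0.00985% with serum in siControl, 0.167% with serum in siPFDN5 and 0% in the other 5 comparisons. Of the 10 members, 2 had an unadjusted p under 0.05 with serum in siPFDN5 and 2 in siPFDN5 against siControl after serum, and 0 in the other 5. Transcripts annotated as targets of nonsense-mediated decay held 12.9% to 24.4% of the estimates of HNRNPD over the libraries, 6.63% to 16.8% of those of HNRNPA1 and 6.41% to 14.5% of those of HNRNPDL. HNRNPC, HNRNPM and HNRNPU were at or below 0.423%. For HNRNPU only 10 of 31 annotated transcripts could be matched between the files and the annotation.

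**Figure D4:**
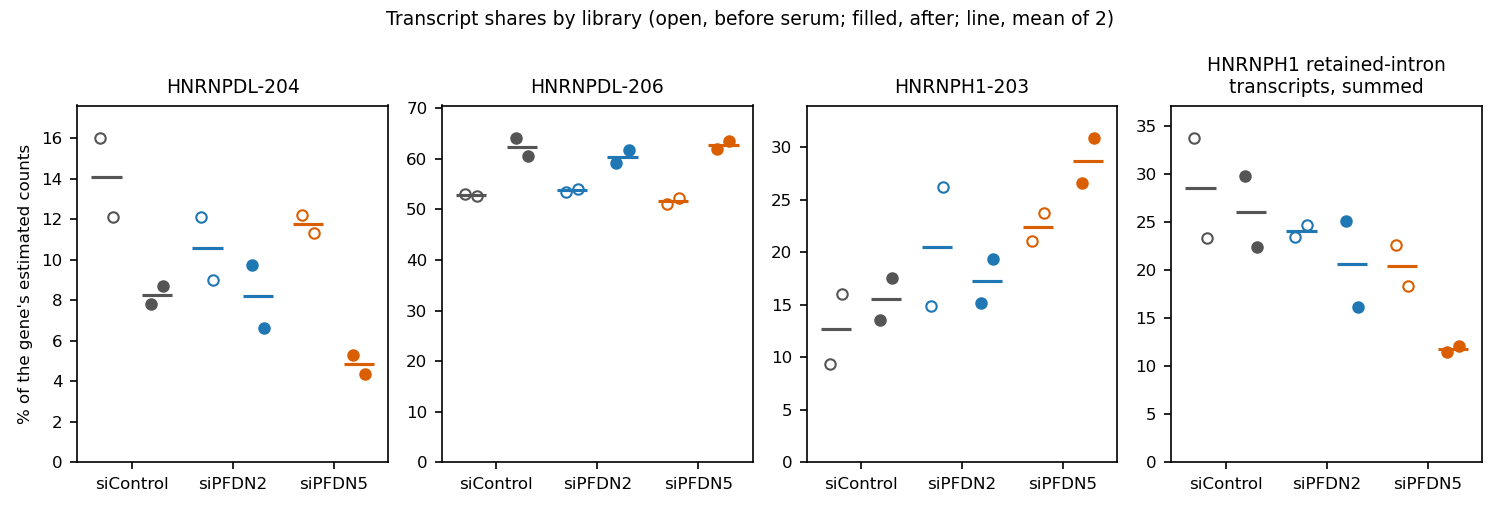
Share of the gene's estimated counts (y axis, percent) held by HNRNPDL-204, HNRNPDL-206, HNRNPH1-203 and the summed retained-intron transcripts of HNRNPH1, 1 point per library, open before and filled after serum. HNRNPDL-206 is at 59.1% or above in every filled point and at 54.1% or below in every open one, and the HNRNPH1 retained-intron share is lowest in the filled siPFDN5 points, at 11.5% and 12.1%.

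Counts within the introns of the 10 genes were taken as gene-body counts less exon counts, and are given as a share of gene-body counts. The share was lowest for HNRNPA1, 0.529% to 1.30%, and highest for HNRNPD, 6.91% to 20.5%, and HNRNPM, 4.75% to 13.5%. The 20.5% of HNRNPD was in siControl after serum replicate 1, where the share over all genes was 20.6%. Over all genes the intronic share of a library was 14.8% to 25.9%, with 22.8% and 25.9% in siPFDN5 before serum and 17.2% and 14.8% in the libraries labelled siPFDN5 after serum. In that pair of groups 44.7% of 17390 genes changed in intronic share with serum, 7633 of them lower and 138 higher. Of the members 5 of 10 were called, all lower, which is near the share of all genes.

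HNRNPC had the largest change among the members. Its intronic share stood at 8.24% and 6.90% before and 1.94% and 2.26% after serum in the siPFDN5 libraries, on 2347, 2144, 859 and 1142 intronic counts, and fell by 1.93 on the log2 scale (SE 0.42, adjusted p = 0.00644, edgeR). HNRNPM fell by 1.08 (adjusted p = 0.0193), from 11.3% and 9.98% to 5.98% and 4.75%. HNRNPH1 fell by 0.97 (adjusted p = 0.0133), from 4.01% and 3.78% to 2.0% and 2.07%. HNRNPDL fell by 0.88 (adjusted p = 0.0139) and HNRNPU by 0.72 (adjusted p = 0.0355). The median over all genes was -0.82 and over the members -0.80. When intronic and exon counts were scaled separately, which removes the shift shared by all genes, 2 members were called: HNRNPC, at -1.09 with an adjusted p of 0.0171, and HNRNPA3, at 1.01 with an adjusted p of 0.0163, whose unscaled share stood at 1.47% and 1.18% before and 1.57% and 1.40% after serum. HNRNPU was at 0.12 on that scale, the opposite direction, with an adjusted p of 0.761. Leaving out 1 siPFDN5 library left 0 members called without replicate 1 of either time and 1 member, HNRNPC, without replicate 2 of either time.

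In siControl and in siPFDN2, 0 members were called in intronic share with serum (edgeR; 2 and 1 had an unadjusted p under 0.05), with 0.978% and 0.587% of genes called. HNRNPDL stood at 2.56% and 2.21% before and 1.37% and 1.29% after serum in siControl (-0.86 ± 0.24, adjusted p = 0.126), and at 2.56% and 3.12% before and 1.53% and 1.21% after in siPFDN2 (-1.08 ± 0.24, adjusted p = 0.0653). HNRNPDL thus had a lower share after serum under each siRNA, without overlap, as did HNRNPA2B1. HNRNPA2B1 changed by -0.56 ± 0.26 in siControl, -0.51 ± 0.26 in siPFDN2 and -0.63 ± 0.27 in siPFDN5 (adjusted p = 0.389, 0.324 and 0.0735, edgeR). How many of all genes lay without overlap was not counted. With separate scaling the change of HNRNPDL was -1.01 in siControl (adjusted p = 0.0136), -0.84 in siPFDN2 (adjusted p = 0.0379) and -0.04 in siPFDN5 (adjusted p = 0.917, edgeR). HNRNPA1 stood at 1.30% and 1.21% before and 0.727% and 0.641% after serum in siControl, on 165, 158, 134 and 185 intronic counts (-0.89 ± 0.28, adjusted p = 0.180).

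After serum, the libraries labelled siPFDN5 had a lower intronic share than siControl in 4 of 10 members, with 38.5% of genes called, 6616 of them lower. These were HNRNPC at -1.86 ± 0.43 (adjusted p = 0.0201), HNRNPD at -1.13 ± 0.36 (adjusted p = 0.0315), HNRNPH1 at -1.09 ± 0.26 (adjusted p = 0.0204) and HNRNPM at -0.87 ± 0.32 (adjusted p = 0.0491, edgeR). The median was -0.74 over all genes and -0.59 over the members. With separate scaling HNRNPC alone was called, at -1.10 (adjusted p = 0.0462), and HNRNPD, HNRNPH1 and HNRNPM were at -0.37, -0.33 and -0.11, with adjusted p from 0.337 to 0.810. HNRNPC and HNRNPD depend on which siControl library is used, since they stood at 11.4% and 20.5% in replicate 1 after serum and at 4.41% and 10.1% in replicate 2. Without replicate 1 of siControl after serum, or without either siPFDN5 library after serum, 0 members were called. The serum response of HNRNPC differed between siPFDN5 and siControl by -2.63 ± 0.60 (adjusted p = 0.0241), the only member called where 33.2% of genes were. In the other 4 comparisons, siPFDN2 or siPFDN5 against siControl before serum, siPFDN2 against siControl after serum and the siPFDN2 difference, 0 members and 0% of genes were called (edgeR; 0, 1, 0 and 1 members had an unadjusted p under 0.05, and 555, 1986, 859 and 921 genes).

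**Figure D5:**
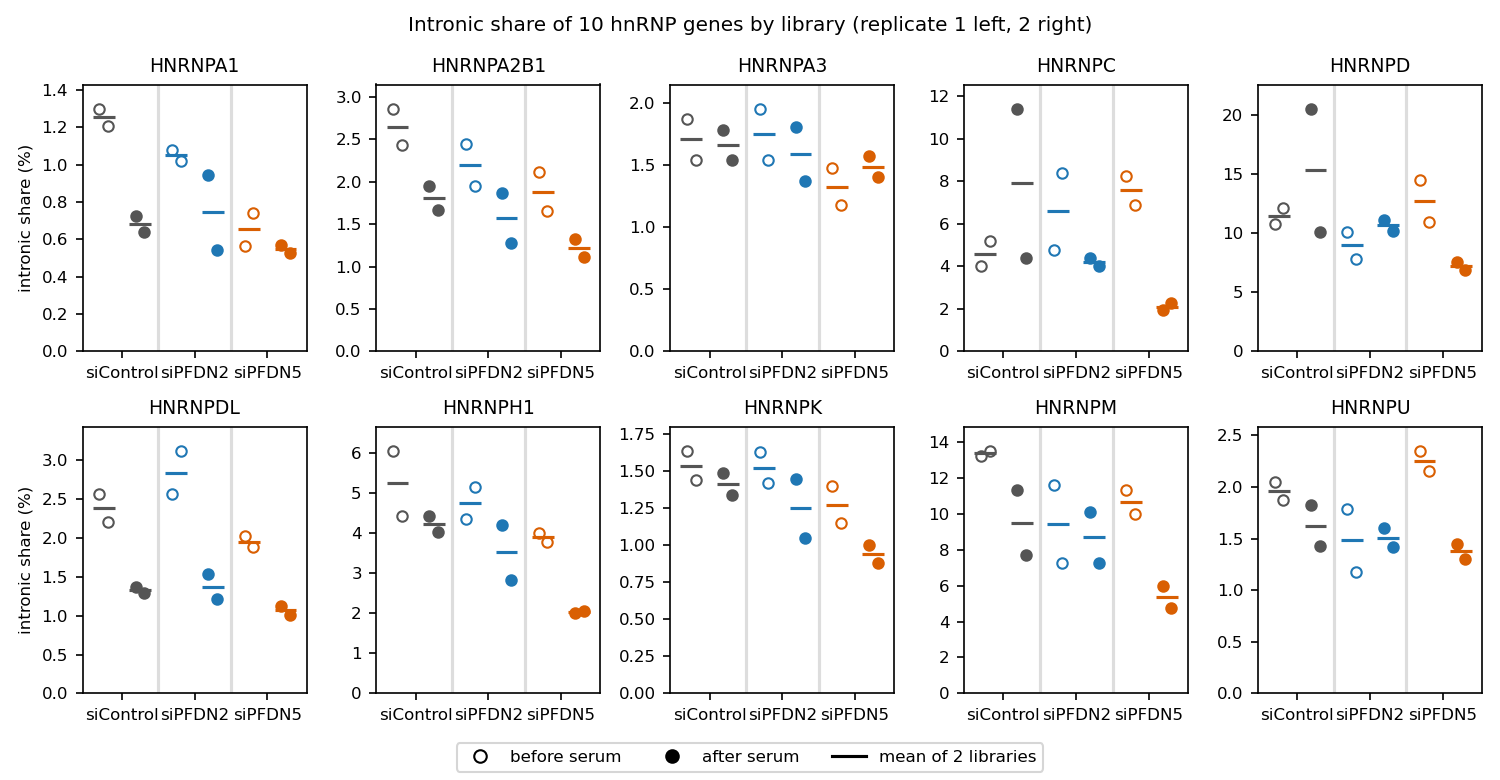
Intronic counts as a percentage of gene-body counts (y axis) for each hnRNP gene by siRNA, open before and filled after serum, with replicate 1 on the left and the line at the mean of 2 libraries. In the HNRNPC panel the filled siPFDN5 points at 1.94% and 2.26% are the lowest, and the filled siControl points at 11.4% and 4.41% are far apart.

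Of 18 other hnRNP genes, all tested, 0 were called in any of the 9 comparisons of exon counts with all libraries. Without the siPFDN2 library that stood apart, 5 were called higher and 0 lower with serum in siControl, where 12% of all genes were called, namely SYNCRIP (0.40 ± 0.07, adjusted p = 0.000636), HNRNPA0 (0.47 ± 0.09), HNRNPAB (0.38 ± 0.08), HNRNPH2 (0.28 ± 0.07) and RBMXL1 (0.28 ± 0.07). The median of the 18 was 0.21, against 0.21 over the 10 members and -0.01 over all genes. With serum in the siPFDN5 libraries, where 32.8% of all genes were called, 6 were higher and 1 was lower, HNRNPUL2 (-0.55 ± 0.10, adjusted p = 0.000311), and the highest change was that of RBMXL1 (0.65 ± 0.07, adjusted p = 2.17e-06). Of 10 factors of nonsense-mediated decay, 0 were called with all libraries. Without that library, 0 were higher and 3 lower with serum in siControl (UPF2, SMG5 and SMG9), and 1 higher and 5 lower in the siPFDN5 libraries, against the same shares of all genes. Among the latter was UPF1, the central helicase of the pathway (-0.37 ± 0.07, adjusted p = 0.000758, edgeR), while SMG8 rose (0.35 ± 0.08). Of 3 carriers that move hnRNP proteins between nucleus and cytoplasm, TNPO1 (-0.28 ± 0.08, adjusted p = 0.0251) and TNPO2 (-0.34 ± 0.08, adjusted p = 0.00666) were lower with serum in siControl without that library, against the 12% of all genes, and 0 were called with it.

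The genes whose log2 exon CPM followed the mean profile of the 10 members most closely over the 12 libraries, among 5869 genes of at least 5 log2 CPM, were WBP11 (Pearson r = 0.941), TRA2A (0.904), NUP153 (0.811), PHLDA1 (0.810) and DDX3X (0.806). Without the library that stood apart the values were 0.939, 0.908, 0.843, 0.832 and 0.831. The points share libraries and groups, and these values describe likeness only. RefSeq promoter windows (GRCh38.p14) were found for 9 of the 10 genes, 14 windows in all. On either strand, the GC box GGGCGG was in 8 of 14 windows against 45.0% of 35116 windows of the table, CCAAT in 7 against 34.6%, and the E box CACGTG in 5 against 7.26%. The TATA box TATAAA was in 2 of 14 against 11.5%, CCGGAAG in 1 against 10.3%, the CArG box in 1 against 1.29%, and TGACGTCA in 0 against 1.85%. Windows of the same gene can overlap, and a match is a description of the letters only.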

How the data were processed

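The authors' deposited tables hold whole-number read counts per gene over exons and over gene bodies, made with featureCounts 1.5.2 against Ensembl 87 on GRCh38, per the file headers, which show paired counting of fragments with both ends mapped, overlapping genes each given the read, no strand setting and no multimapping reads. The authors' deposited transcript files hold estimated counts and TPM per transcript. The submitters' processing notes name kallisto 0.43 and HISAT2 without giving a role. Total counts per library were 46158398 to 114454288 over exons, and counting intervals were not computed.

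Exon counts were tested with edgeR 4.0.16 (R 4.3.3; limma 3.58.1) in 1 quasi-likelihood fit over all 6 groups, with TMM scaling, filterByExpr and robust dispersions, and p-values were adjusted over all genes by Benjamini and Hochberg. DESeq2 1.42.0 was an alternative. Intronic share (gene-body less exon counts, negative values set to 0) and noncoding transcript share (estimated counts, rounded, of all other transcript types against protein_coding) were tested as a class-by-group term with the library as a block. The scripts were tested on simulated data. The threshold was an adjusted p of 0.05. Log2 CPM used a prior count of 2. Without strand, a gene and an antisense partner cannot be told apart. Other genes overlap HNRNPA2B1 (NFE2L3, CBX3), HNRNPU (COX20), HNRNPA1, HNRNPA3, HNRNPD, HNRNPH1, HNRNPK and HNRNPM, and none overlaps HNRNPC or HNRNPDL. In each of the count files, 6 columns match no sample label and were not used. The members and gene lists were chosen with earlier results of these data known. Named were the members, the targets, listed genes called, transcripts with at least 5% of a gene's estimates, and the 5 genes most like the members. A few items are not reported here.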

Additional observations from a re-analysis of the deposited data

Results flagged for a closer look

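The intronic share of HNRNPC changed with serum differently in siPFDN5 and in siControl by a test of the difference itself, at -2.63 ± 0.60 on the log2 scale (adjusted p = 0.0241, edgeR). PFDN5 itself rose with serum in siPFDN5, and PFDN2 rose with serum in siControl. Serum and the levels of PFDN5 and PFDN2 thus cannot be told apart here. The change with serum was -1.93 ± 0.42 in the siPFDN5 libraries and 0.69 ± 0.42 in siControl. In siControl after serum the 2 replicates stood at 11.4% and 4.41%, and without the first of them the difference was -1.88 (adjusted p = 0.0153). The median of the same difference was -0.94 over all genes, and with intronic and exon counts scaled separately that of HNRNPC was -1.63 with an adjusted p of 0.0508. Its range over the 16 alternative settings was -3.37 to -1.63, with adjusted p from 3.01e-05 to 0.102. The part of the library-wide fall of intronic counts in this result was not tested further.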

How the results depend on the processing

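For exon counts with serum in siControl, 1 member was called, and 0 with library size only or a replicate block, 2 with the GC trend removed (also with the block), 4 with only the groups compared, and 0 to 3 without each replicate. In siPFDN2 the 0 became 3 without a filter and 1 with the GC trend removed (also with the block), and 0 to 7 without each replicate. In siPFDN5 it became 2 with the GC trend removed (also with the block), 5 with only the groups compared and 0 to 3 without each replicate. Before serum, siPFDN2 against siControl gave 1 without a filter or with the GC trend removed and 0 to 6 without each replicate, and siPFDN5 gave 1 with DESeq2, no filter, the GC trend removed (also with the block) or only the groups compared, and 0 to 1 without each replicate. After serum, siPFDN5 gave 4 with only the groups compared and 0 to 5 without each replicate. The difference of the serum response gave 1 without a filter and 0 to 6 without each replicate for siPFDN2, and 5 with only the groups compared and 0 to 6 for siPFDN5.

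For intronic share, separate scaling gave 2 members called with serum in siControl, 1 in siPFDN2, 2 in siPFDN5 (against 5), 1 in siPFDN5 against siControl after serum (against 4) and 0 in the siPFDN5 difference (against 1), which was 2 without a filter. There HNRNPU reversed with serum in siPFDN5, to 0.12. Without each replicate the counts ran from 0 to 3 with serum in siControl, 0 to 1 in siPFDN2, 0 to 7 in siPFDN5, 0 to 2 in siPFDN2 and 0 to 4 in siPFDN5 against siControl after serum, 0 to 1 in siPFDN5 before serum, and 0 to 1 and 0 to 2 in the siPFDN2 and siPFDN5 differences. For noncoding transcript share with serum in siPFDN2 they ran from 0 to 1. The cause was not tested. The deviations of same-numbered replicates correlated from -0.325 to 0.631 between groups, not positively in every pair, so the numbers were not taken to pair the libraries. With the replicate block, members called in intronic share were 7 with serum in siPFDN5 and 6 in siPFDN5 against siControl after serum, and 0 in every exon comparison. The fewest intronic counts behind a share were 77, for HNRNPA1.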
